A study of Homo sapiens with 12 samples.

Results

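Amino acid transporters are the membrane carriers that move amino acids, and related small molecules such as creatine and taurine, into and out of cells. The genes described here are those whose symbol places them in the solute carrier families SLC1, SLC3, SLC6, SLC7, SLC36, SLC38 or SLC43. A gene was taken when a probe set of the array carried its symbol alone, and its brightest probe set by mean over all arrays stood for it. In this way 45 transporter genes were found among 11963 genes, on 80 of the 22277 probe sets. The rule by symbol uses no measured value, though it was set with earlier results of these data known. The choice of the brightest probe set used only the mean over all 12 arrays.

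The study measured transcripts of HCC827, an established human lung adenocarcinoma line with a mutated EGFR, on 12 Affymetrix arrays in 4 groups of 3. The groups are HCC827 parental cells, ERC4 cells labelled as erlotinib resistant (erlotinib blocks the EGFR kinase), HCC827NT cells carrying a lentiviral non-target shRNA, and Esh9-1 cells carrying a lentiviral shRNA against EGFR. All 4 groups derive from HCC827 and share its mutated EGFR, and all grew in RPMI with 5% FBS. HCC827NT and Esh9-1 cells were also kept in 5 ug/ml puromycin. No drug other than puromycin and antibiotics is named for the growth of any group. ERC4 is 1 line and Esh9-1 carries 1 labelled shRNA, so neither stands for resistance or EGFR loss in general. A resistance label calls all 12 arrays resistant, parental cells included, so groups were taken from sample names and descriptions. The labels do not tell whether the replicates of a group are separate cultures. The p-values therefore reflect the spread among these arrays only, and part of it may be technical.

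The families differ in what they carry. SLC3A2 and SLC3A1 are heavy chains that bring partner proteins of the SLC7 family to the cell surface. With SLC3A2, SLC7A5 exchanges large neutral amino acids such as leucine, SLC7A6 and SLC7A7 exchange cationic for neutral amino acids, and SLC7A11 imports cystine in exchange for glutamate. SLC7A1 carries arginine and lysine on its own. SLC1 members carry glutamate or, as with SLC1A5, exchange glutamine and small neutral amino acids. SLC38 members take up glutamine and alanine with sodium, SLC36A1 exports amino acids from lysosomes with protons, and SLC6 members carry creatine, taurine, glycine, proline, monoamines or neutral amino acids with sodium and chloride. Leucine and other amino acids taken up this way feed protein synthesis and the mTORC1 kinase complex, and SLC7A5 is known to be high in many lung cancers.

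Values below are log2(intensity + 1) minus the median of that array, so 0 is the level of the median probe set. Array medians were 5.67 to 5.75 on the log2 scale in the HCC827 and ERC4 arrays and 7.15 to 7.17 in the HCC827NT and Esh9-1 arrays, and the mean SD of log2 values was 1.89 and 2.26. The 12 arrays thus form 2 sets, each holding 1 comparison, and a difference between HCC827NT and HCC827 cannot be told apart from one between sets. The lowest correlation between replicate arrays was 0.9923. EGFR (201983_s_at), the target of the shRNA, was lower in Esh9-1 than in HCC827NT by 2.47-fold (log2 fold change -1.30 ± 0.08, limma adjusted p = 2.03e-09) and was 1.21-fold higher in ERC4 than in HCC827 (0.27 ± 0.08, limma adjusted p = 0.00763). Epithelial markers (keratins, EPCAM, CDH1, EGFR and others) lay above the array medians for 11 of 11 in HCC827, ERC4 and HCC827NT and for 9 of 11 in Esh9-1, where CDH1 and MUC1 lay under them. Their summed level, as log2 over the array median, was 8.90 to 8.91 in HCC827, 8.16 to 8.25 in ERC4, 9.01 to 9.05 in HCC827NT and 6.85 to 6.87 in Esh9-1, and 9 of 11 were called lower in ERC4 and 11 of 11 in Esh9-1. EGFR, the target of the shRNA, is 1 of these 11 markers. Its fall in Esh9-1 and its rise in ERC4 are therefore part of these counts and sums. Leukocyte markers lay above the medians for 0 to 2 of 11 by group, with summed levels of 2.87 to 3.09 in HCC827, 2.66 to 2.75 in ERC4, 2.41 to 2.45 in HCC827NT and 2.13 to 2.27 in Esh9-1. Fibroblast and endothelial markers lay above the medians for 1 or 2 of 12, with summed levels between 3.03 and 3.38 in every group. Control probe sets moved with the groups too. The ACTB 3' minus 5' signal was 1.07 ± 0.15 (SD, n = 3) in Esh9-1 and 0.20 ± 0.03 in HCC827NT. The GAPDH 3' minus 5' signal was 0.30 in Esh9-1 and -0.05 in HCC827NT, and -0.08 in ERC4 and 0.06 in HCC827. The spiked hybridisation controls lay at 3.79 in ERC4 and 5.29 in HCC827, and at 4.74 in Esh9-1 and 4.20 in HCC827NT. Each of these differences had a two-sided exact permutation p of 0.1, which is the lowest possible for 3 arrays against 3. The ACTB signal was 0.19 in ERC4 and 0.22 in HCC827 (exact permutation p of 0.5). The part of these markers and controls in the results below was not tested.

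In ERC4 against HCC827, 29 of the 45 transporter genes were called (64.4%), where 54.6% of all genes were called. Of them 12 were higher and 17 lower, against backgrounds of 32.2% and 22.4% of all genes. A gene is called where limma's two-sided p, adjusted by Benjamini-Hochberg over the 11963 genes, is under 0.05. In Esh9-1 against HCC827NT, 24 of the 45 were called (53.3%), with a background of 50%. There 10 were higher and 14 lower, where 24.9% and 25.1% of all genes were. Calls in either direction were thus near the share of all genes in Esh9-1 and somewhat above it in ERC4. Lower calls were 37.8% of members in ERC4 and 31.1% in Esh9-1, above the backgrounds, and higher calls were 26.7% and 22.2%, below them. Changes of 2-fold or more were few. ERC4 had 2 such genes higher (SLC7A5 and SLC38A6) and 2 lower (SLC6A8 and SLC6A2), with backgrounds of 5.3% and 1.64%, and Esh9-1 had 3 higher (SLC7A6, SLC1A3 and SLC7A5) and 3 lower (SLC6A8, SLC6A9 and SLC6A6), with backgrounds of 4.81% and 4.16%. The median log2 fold change over the 45 genes was -0.03 in ERC4 and -0.01 in Esh9-1, beside 0.02 and -0.03 over all genes. The 3 arrays of 1 group all lay above or all below those of the other for 30 members in ERC4 and 29 in Esh9-1, with backgrounds of 58.2% and 61.5%. Many members are dim: 17 lay under the array medians in all 4 groups. Without such genes the lower calls numbered 9 of 28 members in each comparison, beside 1795 of 7979 genes in ERC4 and 2475 of 7979 in Esh9-1. Leaving out Esh9-1 replicate 1 also took the lower calls in Esh9-1 to 9 of the 45 members, beside 2659 of all 11963 genes. Of all genes called in ERC4, 59% were higher, a split that became 50% with no centring, 46.9% after quantile normalization within each set and 67.6% without dim genes. For the transporters that share was 41.4%, 38.7%, 35.7% and 57.1%.

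**Figure D1:**
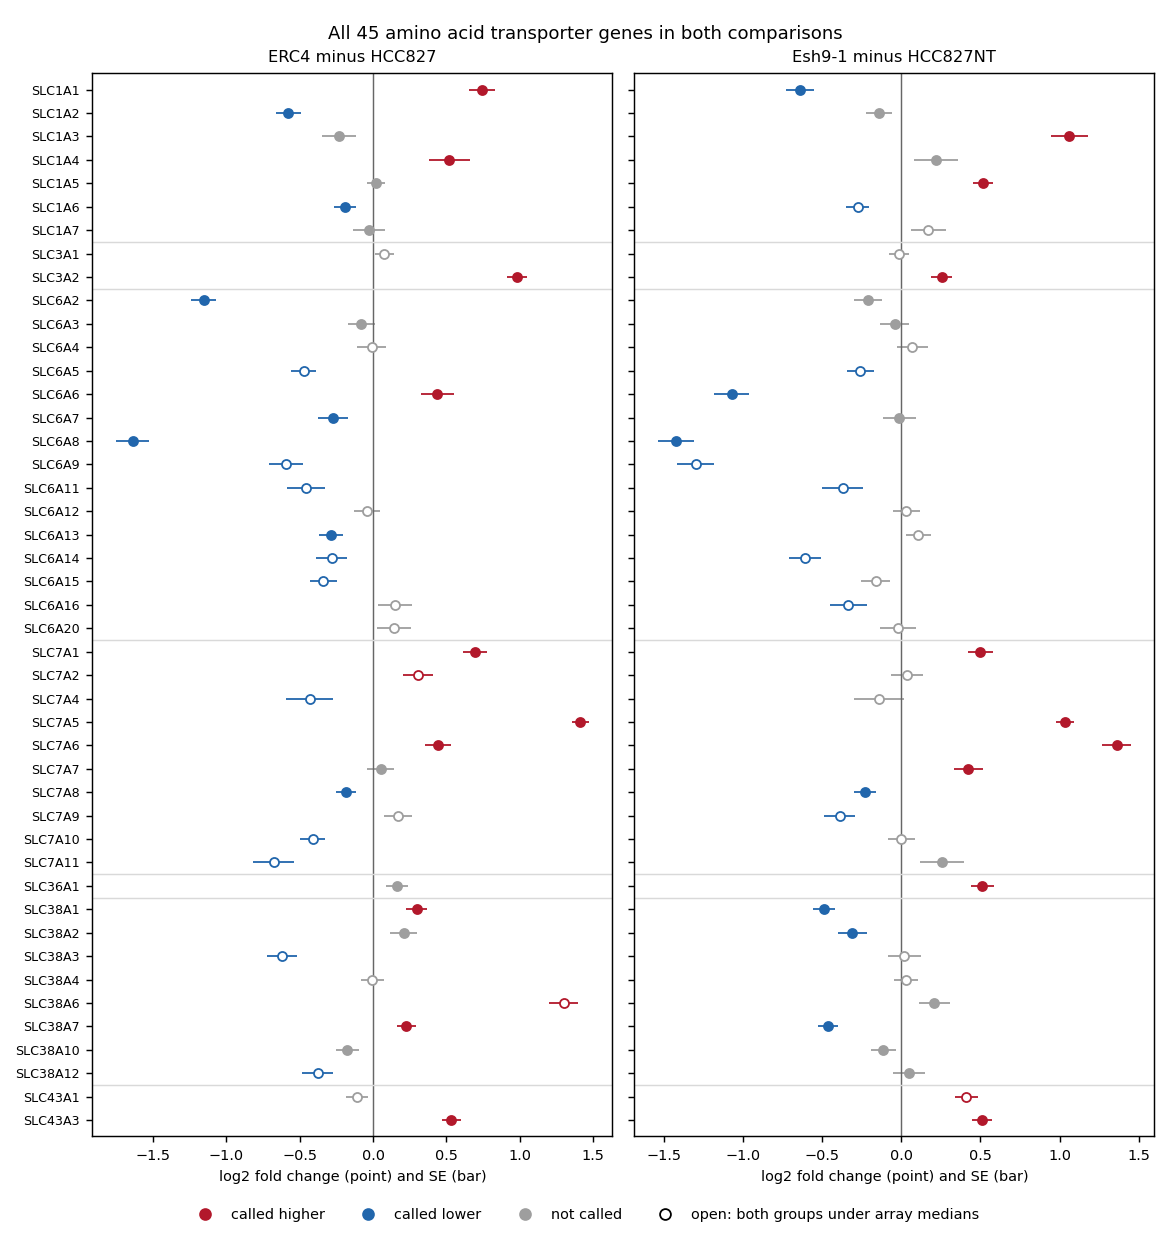
Log2 fold change (point) and limma standard error (bar) of all 45 transporter genes, by family, in ERC4 minus HCC827 (left) and Esh9-1 minus HCC827NT (right), 3 arrays per group. Red points were called higher, blue lower and grey not called, and open points lay under the array medians in both groups. Most points lie within 1 log2 unit of 0, with SLC7A5 among the highest and SLC6A8 the lowest in both panels.

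SLC7A5 and SLC3A2, which together form the leucine exchanger, were called higher in both comparisons, as were 3 other members. These 5 genes (11.1% of members) were SLC7A5, SLC3A2, SLC7A6, SLC7A1 and SLC43A3, while 14.3% of all genes were called higher in both. SLC7A5 (201195_s_at, the only probe set of the gene) read 4.18, 4.15 and 4.16 in the HCC827 arrays and 5.61, 5.56 and 5.56 in ERC4. It read 4.60, 4.54 and 4.59 in HCC827NT and 5.61, 5.62 and 5.61 in Esh9-1. Every array of ERC4 and Esh9-1 lay about 1 log2 unit or more above every array of its control, with little spread within groups. The gene rose 2.66-fold in ERC4 (log2 fold change 1.41 ± 0.06, limma adjusted p = 1.01e-10) and 2.05-fold in Esh9-1 (1.03 ± 0.06, limma adjusted p = 1.16e-09). The difference between those effects was 0.38 ± 0.08 (limma adjusted p = 0.0013), and 0.20 (limma adjusted p = 0.0508) after quantile normalization within each set.

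SLC3A2, the heavy chain that holds SLC7A5 at the surface, rose much more in ERC4 than in Esh9-1. Probe set 200924_s_at read 3.13, 2.96 and 3.09 in HCC827 and 4.00, 4.09 and 4.04 in ERC4. In HCC827NT it read 3.24, 3.19 and 3.27, and in Esh9-1 3.44, 3.50 and 3.51. The groups did not overlap in either comparison, but the step between HCC827NT and Esh9-1 was small. The rise was 1.98-fold in ERC4 (0.98 ± 0.07, limma adjusted p = 1.59e-08) and 1.19-fold in Esh9-1 (0.26 ± 0.07, limma adjusted p = 0.00438), and the effects differed by 0.73 ± 0.09 (limma adjusted p = 1.4e-05). After quantile normalization within each set the ERC4 value was 0.72 and the difference 0.46 (limma adjusted p = 0.000908).

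SLC7A6, another light chain of SLC3A2, showed the opposite order, rising more in Esh9-1. It read 0.84, 0.73 and 0.64 in HCC827 and 1.16, 1.06 and 1.31 in ERC4 (203580_s_at). The HCC827NT arrays gave 1.48, 1.24 and 1.28 and the Esh9-1 arrays 2.77, 2.73 and 2.59. Esh9-1 stood more than 1 log2 unit above HCC827NT on every array. The increase was 1.36-fold in ERC4 (0.44 ± 0.09, limma adjusted p = 0.000729) and 2.57-fold in Esh9-1 (1.36 ± 0.09, limma adjusted p = 7.86e-09), with a difference of effects of -0.92 ± 0.13 (limma adjusted p = 2.85e-05). Its other probe sets were called higher in both comparisons too, at 0.64 and 0.50 in ERC4 and 0.99 and 0.87 in Esh9-1.

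Of the remaining light chains, SLC7A7 was called in Esh9-1, where it rose by 0.42 ± 0.09 (limma adjusted p = 0.00109), and read 0.05 in ERC4 (limma adjusted p = 0.654). SLC7A8, which like SLC7A5 exchanges neutral amino acids, fell slightly in both, by 0.18 (limma adjusted p = 0.0352) and 0.23 (limma adjusted p = 0.0123). SLC7A10, a carrier of small neutral amino acids, fell by 0.41 in ERC4, and SLC7A9, the partner of SLC3A1 in cystine uptake, fell by 0.39 in Esh9-1, both at levels under the array medians. SLC3A1 itself was under the medians in all 4 groups and was called in neither comparison.

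SLC7A11, the cystine importer, went with neither SLC7A5 nor SLC3A2. It read -0.43, 0.07 and 0.28 in HCC827 and -0.86, -0.62 and -0.63 in ERC4 (217678_at). The readings were 0.45, 0.58 and 0.49 in HCC827NT and 0.60, 0.89 and 0.81 in Esh9-1. HCC827 arrays were scattered around the array medians, yet all lay above ERC4, and all Esh9-1 arrays lay above HCC827NT. The gene fell by 0.68 ± 0.14 in ERC4 (limma adjusted p = 0.000905), while the value in Esh9-1 was 0.26 ± 0.14 (limma adjusted p = 0.145), and the effects differed by -0.94 ± 0.20 (limma adjusted p = 0.00125). The Esh9-1 value was called without HCC827 replicate 1 (limma adjusted p = 0.0322) and in a fit of the 6 arrays of that comparison (limma adjusted p = 0.0257). It was also called with the mean of its probe sets (0.28, limma adjusted p = 0.00261). Probe set 209921_at gave -0.52 in ERC4 and 0.52 in Esh9-1, both called at adjusted p over probe sets, and 207528_s_at gave -0.30 (called) and 0.06 (not called).

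SLC7A1, the main carrier of arginine and lysine, was higher in both comparisons on its brightest probe set (212295_s_at). That probe set read 2.28, 2.51 and 2.50 in HCC827 and 2.98, 3.21 and 3.18 in ERC4. It then read 3.21, 3.13 and 3.25 in HCC827NT and 3.73, 3.67 and 3.69 in Esh9-1. Groups did not overlap in either comparison. The fold was 1.62 in ERC4 (0.69 ± 0.08, limma adjusted p = 5.07e-06) and 1.41 in Esh9-1 (0.50 ± 0.08, limma adjusted p = 0.000111), and the ERC4 value became 0.41 after quantile normalization within each set. The other probe sets of this gene did not move together. In ERC4 they gave -0.04, -0.05, 0.67 and -0.63 (212290_at, 212292_at, 206566_at and 215979_s_at), and their mean with the brightest was 0.13 (limma adjusted p = 0.1). In Esh9-1 they gave 1.04, 0.40, -0.50 and -0.12. The related carrier SLC7A2 rose by 0.31 in ERC4 (limma adjusted p = 0.0187) and SLC7A4, whose substrate is not established, fell by 0.43 (limma adjusted p = 0.0326), each while under the array medians.

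**Figure D2:**
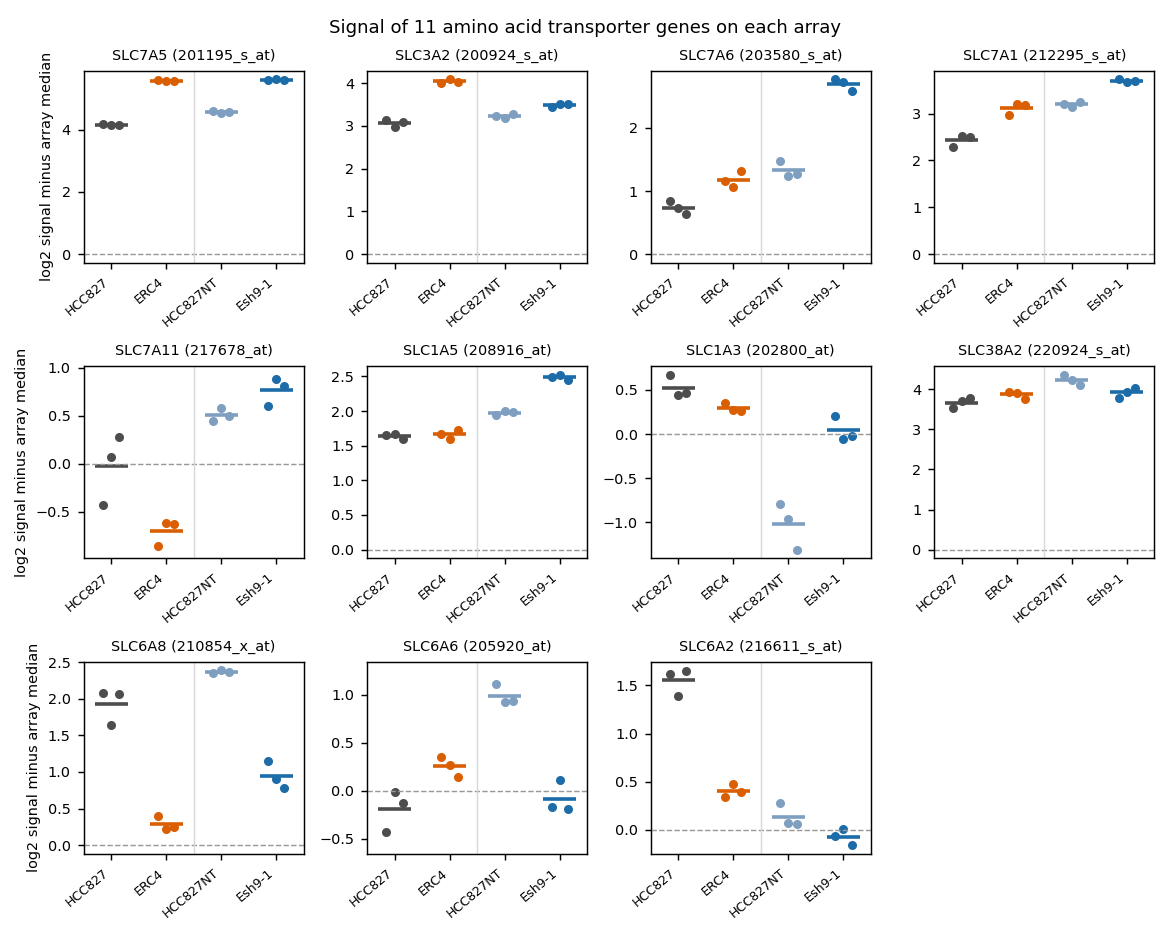
Log2 signal minus the array median (y axis) on each of the 12 arrays for 11 transporter genes, with bars at the mean of 3 arrays and a dashed line at the array median. HCC827 and ERC4 stand left of the grey line and HCC827NT and Esh9-1 right of it, and y axes differ between panels. SLC7A5 is near 5.6 in both ERC4 and Esh9-1, above 4.16 and 4.58 in their controls, and SLC6A8 drops in both.

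The sequences upstream of the genes called higher in both comparisons are shown as a description only. Such genes were 11.1% of the members and 14.3% of all genes, and whether any motif bears on their change was not tested. The windows are the 250 bases before a gene's start in the RefSeq promoter table for GRCh38.p14, which held 50 windows for 33 of the 45 members. Each is written 5′ to 3′ on the gene's strand, with motif matches in capitals. The motifs searched on both strands were CACGTG (the E-box bound by MYC with MAX), TGACNNNGC (the antioxidant response element core) and TGATGNAA (the core of CCAAT enhancer binding protein and ATF response elements). SLC7A5 (chr16:87869508-87869757, minus strand) holds CACGTG 130 bases before its start, SLC7A6 (chr16:68264276-68264525, plus strand) holds TGACNNNGC at 197 and 29 bases, and SLC7A1 (chr13:29595689-29595938, minus strand) holds TGACNNNGC at 85 bases. For SLC3A2 the 30 bases around its TGACNNNGC match are given (chr11:62881651-62881680, plus strand), 37 bases before the start of 1 of its 3 windows, and the other 2 windows hold none of the motifs. The other genes shown have 1 window each. SLC43A3 has no window in the table used.
SLC7A5: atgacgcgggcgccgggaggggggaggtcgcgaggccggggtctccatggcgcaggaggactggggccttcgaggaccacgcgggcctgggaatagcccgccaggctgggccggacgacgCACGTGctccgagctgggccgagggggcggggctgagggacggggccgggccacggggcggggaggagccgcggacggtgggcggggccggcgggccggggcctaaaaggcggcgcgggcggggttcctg
SLC7A6: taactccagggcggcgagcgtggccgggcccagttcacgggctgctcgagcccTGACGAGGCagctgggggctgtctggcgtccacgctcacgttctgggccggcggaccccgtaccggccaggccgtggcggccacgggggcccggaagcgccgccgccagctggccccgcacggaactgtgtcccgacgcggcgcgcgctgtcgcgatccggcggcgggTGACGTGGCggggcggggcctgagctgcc
SLC7A1: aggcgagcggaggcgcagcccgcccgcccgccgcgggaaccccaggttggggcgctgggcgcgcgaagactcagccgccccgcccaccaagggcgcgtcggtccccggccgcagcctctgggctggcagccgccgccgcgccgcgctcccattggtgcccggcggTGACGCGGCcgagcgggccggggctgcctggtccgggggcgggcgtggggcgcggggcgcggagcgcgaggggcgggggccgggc
SLC3A2: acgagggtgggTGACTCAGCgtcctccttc
CACGTG stood in 8 of the 50 transporter windows (16%) and in 6.34% of all 35116 windows. TGACNNNGC stood in 6 of 50 (12%) and in 10.9% of all, and TGATGNAA in 2 of 50 (4.0%) and in 3.14%. A match says only that these letters occur in the window, and windows of 1 gene can overlap.

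Among the SLC1 genes, SLC1A5 and SLC1A3 were higher with the EGFR shRNA and were not called in ERC4. SLC1A5 (208916_at), the glutamine exchanger, read 1.65, 1.67 and 1.60 in HCC827 and 1.67, 1.59 and 1.73 in ERC4. Its HCC827NT arrays read 1.94, 1.99 and 1.98 and its Esh9-1 arrays 2.50, 2.52 and 2.44. ERC4 and HCC827 overlapped, while Esh9-1 stood clear of HCC827NT. The increase in Esh9-1 was 1.43-fold (0.52 ± 0.06, limma adjusted p = 6.37e-06), the value in ERC4 was 0.02 ± 0.06 (limma adjusted p = 0.801) and the effects differed by -0.49 ± 0.09 (limma adjusted p = 0.000323). After quantile normalization within each set the ERC4 value was -0.22 (limma adjusted p = 0.00972).

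SLC1A3 (202800_at), a glutamate and aspartate carrier best known from glia, read 0.67, 0.44 and 0.47 in HCC827 and 0.36, 0.27 and 0.26 in ERC4. It read -0.79, -0.96 and -1.31 in HCC827NT and 0.20, -0.06 and -0.02 in Esh9-1. Esh9-1 thus came up to about the array medians from well under them. The increase was 2.09-fold in Esh9-1 (1.06 ± 0.11, limma adjusted p = 1.78e-06), the ERC4 value was -0.23 ± 0.11 (limma adjusted p = 0.103), and the difference of effects was -1.29 ± 0.16 (limma adjusted p = 1.17e-05). Without HCC827NT replicate 3 the ERC4 value was called (limma adjusted p = 0.0438), as it was after quantile normalization within each set (-0.29, limma adjusted p = 0.0408).

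SLC1A1 (213664_at), an epithelial and neuronal glutamate and cysteine carrier, moved in opposite directions. It was -0.37, -0.70 and -0.61 in HCC827 and 0.18, 0.29 and 0.08 in ERC4, and 1.06, 1.05 and 0.99 in HCC827NT and 0.33, 0.34 and 0.52 in Esh9-1. ERC4 lay above every HCC827 array and Esh9-1 below every HCC827NT array. It rose 1.67-fold in ERC4 (0.74 ± 0.09, limma adjusted p = 6.89e-06) and fell by 0.64 ± 0.09 in Esh9-1 (limma adjusted p = 2.82e-05), and the effects differed by 1.38 ± 0.13 (limma adjusted p = 5.77e-07). Its other probe set, 206396_at, gave 0.10 (not called) and -1.21 (called). SLC1A4, an exchanger of serine and alanine, rose by 0.52 ± 0.14 in ERC4 (limma adjusted p = 0.00559) from HCC827 arrays that were spread between 0.36 and 1.14. SLC1A2, the main glutamate carrier of astrocytes, fell by 0.58 ± 0.08 in ERC4 (limma adjusted p = 4.06e-05), SLC1A6, a glutamate carrier of cerebellum, fell by 0.19 in ERC4 and 0.28 in Esh9-1, and SLC1A7, one of retina, was not called in either.

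The SLC38 glutamine carriers SLC38A1 and SLC38A7 fell in Esh9-1 and not in ERC4. SLC38A1 (218237_s_at), a plasma membrane carrier, read 3.65, 3.60 and 3.73 in HCC827 and 3.99, 3.87 and 4.02 in ERC4. It read 4.10, 4.16 and 4.00 in HCC827NT and 3.64, 3.63 and 3.53 in Esh9-1. The groups were apart in both comparisons, in opposite directions. It fell by 0.49 ± 0.07 in Esh9-1 (limma adjusted p = 3.65e-05) and was 0.30 ± 0.07 higher in ERC4 (limma adjusted p = 0.00248), an increase that came to 0.04 (limma adjusted p = 0.703) after quantile normalization within each set. The difference of effects was 0.78 ± 0.10 (limma adjusted p = 1.37e-05).

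SLC38A7 (56821_at), a lysosomal glutamine carrier, was 1.48, 1.55 and 1.58 in HCC827 and 1.76, 1.68 and 1.84 in ERC4, and 1.94, 1.90 and 1.90 in HCC827NT and 1.44, 1.46 and 1.44 in Esh9-1. The pattern was that of SLC38A1: ERC4 arrays a little above HCC827 and Esh9-1 arrays clearly below HCC827NT. It fell by 0.46 ± 0.06 in Esh9-1 (limma adjusted p = 2.07e-05), and its increase of 0.23 ± 0.06 in ERC4 (limma adjusted p = 0.0074) became -0.01 (limma adjusted p = 0.876) after quantile normalization within each set. The effects differed by 0.69 ± 0.09 (limma adjusted p = 1.68e-05). A second probe set, 218727_at, gave 0.76 in ERC4 (limma adjusted p = 4.28e-05 over probe sets) and -0.56 in Esh9-1 (limma adjusted p = 0.000595), with a difference of 1.32. The dimmer 222215_at gave -0.09 and -0.16 (neither called). SLC38A2 (220924_s_at), the carrier known to be induced when amino acids run short, read 3.52, 3.70 and 3.77 in HCC827, 3.94, 3.91 and 3.76 in ERC4, 4.36, 4.24 and 4.09 in HCC827NT and 3.79, 3.94 and 4.03 in Esh9-1. HCC827 and ERC4 overlapped and Esh9-1 lay just below HCC827NT. The ERC4 value was 0.21 ± 0.09 (limma adjusted p = 0.0699), and 0.26 and called without HCC827 replicate 3 (limma adjusted p = 0.0434) or ERC4 replicate 3 (limma adjusted p = 0.0457). After quantile normalization within each set it was -0.06 (limma adjusted p = 0.575). In Esh9-1 it fell by 0.31 ± 0.09 (limma adjusted p = 0.0113), a call that ended without HCC827NT replicate 1 (-0.25, limma adjusted p = 0.0599) or Esh9-1 replicate 1 (-0.25, limma adjusted p = 0.0601). The other SLC38A2 probe set, 218041_x_at, was of similar brightness and its groups overlapped in both comparisons. It gave 0.15 in ERC4 and -0.19 in Esh9-1 (limma adjusted p = 0.199 and 0.115 over probe sets).

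SLC38A6 was among the larger increases in ERC4 but from a dim level. Its mean rose from -1.59 to -0.29, both under the array medians, a 2.46-fold change (1.30 ± 0.10, limma adjusted p = 5.86e-08), and the Esh9-1 value was 0.21 (limma adjusted p = 0.0964, and 0.0365 without HCC827NT replicate 3). SLC38A3, a glutamine carrier of liver and kidney, fell by 0.62 in ERC4 (limma adjusted p = 0.000138) and SLC38A12 by 0.38 (limma adjusted p = 0.00632). SLC38A4 and SLC38A10 were called in neither comparison.

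The SLC6 family held 9 of the 17 lower calls in ERC4 and 7 of the 14 in Esh9-1. Of its 15 measured members, 1 was called higher and 9 lower in ERC4 (median -0.28), and 0 higher and 7 lower in Esh9-1 (median -0.21), by limma at adjusted p under 0.05. Over all genes the shares called were 32.2% higher and 22.4% lower in ERC4 and 24.9% and 25.1% in Esh9-1. Many of these genes are known from neurons and sit near or under the array medians here. SLC6A8 (210854_x_at), which imports creatine, was well above them. It read 2.08, 1.65 and 2.06 in HCC827 and 0.40, 0.22 and 0.24 in ERC4. In HCC827NT it read 2.36, 2.39 and 2.36, and in Esh9-1 1.15, 0.91 and 0.78. All arrays of ERC4 and Esh9-1 stood more than 1 log2 unit below their controls. The decrease was 3.11-fold in ERC4 (-1.64 ± 0.11, limma adjusted p = 2.29e-08) and 2.68-fold in Esh9-1 (-1.42 ± 0.11, limma adjusted p = 6.98e-08). The difference of effects, -0.22 ± 0.16, was not called (limma adjusted p = 0.294), but other settings called it. It was -0.36 without HCC827 replicate 2 (limma adjusted p = 0.0381), -0.44 with the mean of its probe sets (limma adjusted p = 0.00392) and -0.54 with the first set stretched to the spread of the second (limma adjusted p = 0.0256). Its other probe sets, 213843_x_at and 202219_at, gave -1.38 and -2.04 in ERC4 and -1.32 and -0.997 in Esh9-1. For 202219_at the difference of effects was -1.05 (limma adjusted p = 4.3e-06 over probe sets). Near-identical pseudogene copies of SLC6A8 exist, and probe sets ending in _x_at can match such copies, so the share of signal from the gene itself is uncertain. Of the 3 probe sets used, 202219_at is the one without that ending. The probe sets that stand for SLC1A2, SLC1A4 and SLC7A8 also end in _x_at.

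SLC6A6 (205920_at), the taurine carrier, moved in opposite directions. It read -0.43, -0.01 and -0.12 in HCC827 and 0.35, 0.26 and 0.14 in ERC4. Its HCC827NT arrays gave 1.11, 0.93 and 0.93 and its Esh9-1 arrays -0.17, 0.11 and -0.19. The fall in Esh9-1 was clear on every array, and the rise in ERC4 was small. Taurine carrier signal fell 2.10-fold in Esh9-1 (-1.07 ± 0.11, limma adjusted p = 1.04e-06) and was 1.36-fold higher in ERC4 (0.44 ± 0.11, limma adjusted p = 0.00364), with a difference of effects of 1.51 ± 0.16 (limma adjusted p = 1.75e-06). In ERC4 its other probe sets gave -0.39 (211030_s_at, called) and 0.21 (205921_s_at, not called), and the mean of its probe sets was 0.09 (limma adjusted p = 0.298).

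SLC6A2 (216611_s_at), the noradrenaline carrier, read 1.62, 1.39 and 1.66 in HCC827 and 0.34, 0.47 and 0.39 in ERC4. It read 0.27, 0.07 and 0.06 in HCC827NT and -0.07, 0.00 and -0.16 in Esh9-1. Only the HCC827 arrays stood well above the array medians. The decrease in ERC4 was 2.23-fold (-1.15 ± 0.09, limma adjusted p = 5.06e-08), and the Esh9-1 value was -0.21 ± 0.09 (limma adjusted p = 0.0574, and 0.0323 without HCC827 replicate 2). Of the other 6 probe sets of this gene, 215715_at alone was called in ERC4, at -0.28, and with the mean of all its probe sets the difference of effects went from -0.94 (limma adjusted p = 1.68e-05) to -0.13 (limma adjusted p = 0.253).

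Several carriers of glycine, GABA and other amino acids in the SLC6 family fell from levels near or under the array medians. SLC6A9, a glycine carrier, fell by 0.59 ± 0.12 in ERC4 (limma adjusted p = 0.000593) and 2.46-fold in Esh9-1 (-1.30 ± 0.12, limma adjusted p = 2.61e-07), under the array medians in all 4 groups. SLC6A5, the other glycine carrier, fell by 0.47 and 0.26, SLC6A11, a GABA carrier, by 0.46 and 0.37, and SLC6A14, a broad carrier of neutral and cationic amino acids, by 0.28 and 0.61, each also under the medians. In ERC4 alone, calls were made lower for SLC6A13 (-0.29, from 0.35 to 0.06), a GABA carrier, SLC6A15 (-0.34), a neutral amino acid carrier of neurons, and SLC6A7 (-0.27, from 0.26 to -0.01), a proline carrier. Of these 3 the difference of effects was called for SLC6A13 (limma adjusted p = 0.0109). SLC6A16, whose substrate is not established, fell by 0.34 in Esh9-1. The dopamine, serotonin, betaine and proline carriers SLC6A3, SLC6A4, SLC6A12 and SLC6A20 were called in neither comparison.

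SLC43A3 and SLC36A1 complete the members. SLC43A3 (213113_s_at), classed with amino acid carriers though it is known to carry purine bases, read 2.49, 2.40 and 2.48 in HCC827, 2.93, 3.0 and 3.04 in ERC4, 2.53, 2.48 and 2.53 in HCC827NT and 3.10, 3.02 and 2.95 in Esh9-1. The groups did not overlap in either comparison. It rose by 0.53 ± 0.07 in ERC4 (limma adjusted p = 7.54e-06) and 0.51 ± 0.07 in Esh9-1 (limma adjusted p = 1.03e-05). The ERC4 value was 0.25 after quantile normalization within each set, and the mean of its 2 probe sets in Esh9-1 was 0.14 (limma adjusted p = 0.068), since 210692_s_at gave 0.91 in ERC4 and -0.23 in Esh9-1. The difference of effects was 0.02 ± 0.09 (limma adjusted p = 0.863), but -0.27 after quantile normalization within each set (limma adjusted p = 0.0268) and 0.58 with the mean of probe sets (limma adjusted p = 6.67e-05). SLC43A1, a carrier of large neutral amino acids, rose by 0.41 in Esh9-1 (limma adjusted p = 0.000256) at a dim level. The lysosomal carrier SLC36A1 rose by 0.51 ± 0.07 in Esh9-1 (limma adjusted p = 3.26e-05) and read 0.16 in ERC4 (limma adjusted p = 0.0707, and 0.0471 without Esh9-1 replicate 3).

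The test of the difference between the ERC4 and Esh9-1 effects called 24 of the 45 transporters, 11 with the higher value in ERC4 and 13 with the lower, where 48.3%, 28.7% and 19.6% of all genes were called. Taken with the single comparisons, and on the probe set that stands for each gene, 5 genes rose in both and 7 fell in both. Those that fell were SLC1A6, SLC6A5, SLC6A8, SLC6A9, SLC6A11, SLC6A14 and SLC7A8. The background of genes called lower in both was 7.36%. SLC1A1, SLC6A6, SLC38A1 and SLC38A7 rose in ERC4 and fell in Esh9-1 (background 7.31%), and 0 members did the reverse (background 2.43%). The 2 comparisons share no arrays, and across the 45 members their fold changes had Pearson's r of 0.42 and Spearman's rho of 0.29, beside 0.37 and 0.28 over all 11963 genes. These are descriptions across genes, which are not independent replicates, and the effects were measured in sets of unequal spread.

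**Figure D3:**
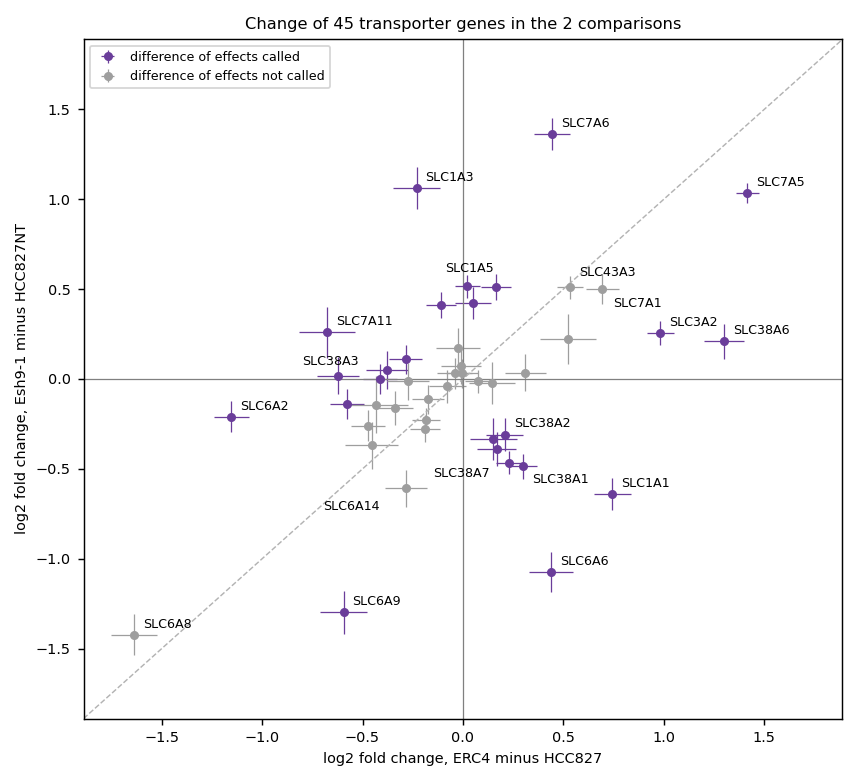
Log2 fold change in ERC4 minus HCC827 (x axis) against Esh9-1 minus HCC827NT (y axis) for the 45 transporter genes, with limma standard errors as bars. Purple marks the 24 genes whose effects differed by limma's test, and the dashed line marks equal effects. SLC7A5 (1.41 and 1.03) and SLC6A8 (-1.64 and -1.42) lie in the corners of shared direction, and SLC6A6 (0.44 and -1.07) and SLC1A1 (0.74 and -0.64) at the lower right.

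How far a transporter's value depends on the probe set could be read for the 16 members that have several. In ERC4, SLC6A6 and SLC7A1 had probe sets called in opposite directions, and in Esh9-1 SLC1A4, SLC43A3 and SLC7A1 did. SLC6A8 and SLC7A6 had all 3 of their probe sets called in 1 direction in both comparisons. Probe sets of 1 gene can lie in different parts of its transcript, and they share the arrays, so they are not replicates of each other. SLC7A5, SLC3A2, SLC1A5 and SLC1A3 each have 1 probe set here and offer no such check.

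**Figure D4:**
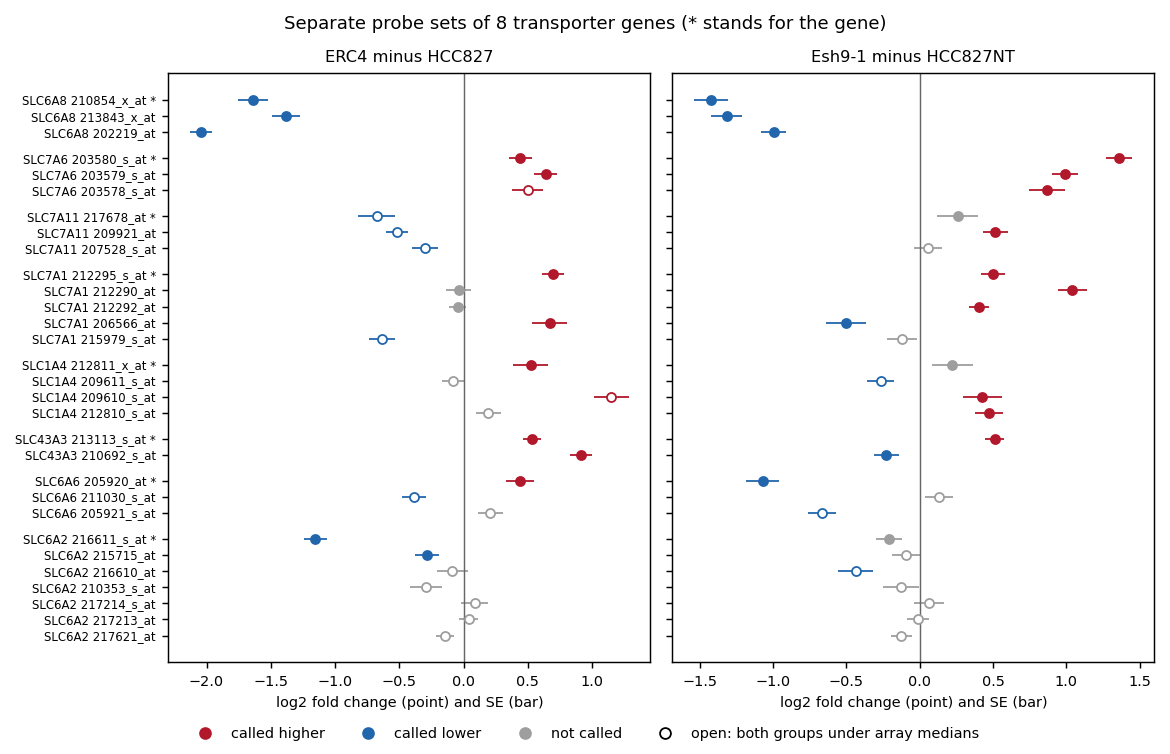
Log2 fold change (point) and standard error (bar) of each probe set of 8 transporter genes, with a star at the probe set that stands for the gene. Colours are as for all members (red called higher, blue called lower, grey not called, open under the array medians in both groups). The 3 probe sets of SLC6A8 lie between -2.04 and -0.997, while those of SLC7A1 run from -0.63 to 0.69 in ERC4 and from -0.50 to 1.04 in Esh9-1.

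Genes that work around the transporters were read from lists of pathway genes, chosen with earlier results of these data known. Transporter genes such as SLC7A5, SLC3A2 and SLC7A11 are known targets of ATF4, the transcription factor of the amino acid response. Of 16 measured genes of that response, 11 were called higher and 2 lower in ERC4 (median 0.41), and 6 higher and 7 lower in Esh9-1 (median 0.03). ATF4 itself, named here after its value was seen, was one of the 2 lower in ERC4 (-0.26 ± 0.06, limma adjusted p = 0.00263) and read 0.13 in Esh9-1 (limma adjusted p = 0.0929). VLDLR, a lipoprotein receptor, rose 5.12-fold in ERC4 (2.36 ± 0.10, limma adjusted p = 1.82e-10) and by 0.75 in Esh9-1 (limma adjusted p = 1.81e-05). ATF3, a stress transcription factor, rose by 1.20 in ERC4 and by 0.80 in Esh9-1 (limma adjusted p = 8.39e-07). STC2 of that list rose by 0.32 in ERC4 and 1.67 in Esh9-1, and VEGFA rose by 1.06 in ERC4 and fell by 1.12 in Esh9-1. DDIT4, an inhibitor of mTORC1, fell by 1.30 in ERC4 and 7.96-fold in Esh9-1 (-2.99, limma adjusted p = 1.98e-13).

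Of 17 genes that sense amino acids for mTORC1, 12 were higher and 1 lower in ERC4 (median 0.27), where 32.2% and 22.4% of all genes were. In Esh9-1, 2 were higher and 3 lower (median 0.05), where 24.9% and 25.1% of all genes were. Without genes under the medians in all 4 groups, the background called higher in ERC4 was 3747 of 7979. RRAGD, one of the Rag GTPases that bring mTORC1 to the lysosome, rose by 1.41 in ERC4 and fell by 0.75 in Esh9-1. MIOS, a subunit of the complex that activates mTORC1 signalling, rose by 1.14 in ERC4 and read -0.09 in Esh9-1 (limma adjusted p = 0.328). Of 11 known regulators of transporters, 10 were higher and 0 lower in ERC4 (median 0.57) and 6 higher and 0 lower in Esh9-1 (median 0.21), by limma at adjusted p under 0.05. The list mixes regulators of unlike action, so these counts have no single direction for the transporters. EPAS1, a hypoxia-inducible factor, rose by 2.11 in ERC4, MAX, the partner of MYC, by 1.15, and CD44, which is known to bind SLC7A11 at the membrane, by 0.86 in ERC4 and 1.97 in Esh9-1. BACH1, NFE2L2 and KEAP1 rose by 0.90, 0.33 and 0.42 in ERC4 and by 0.23, 0.69 and 0.33 in Esh9-1.

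Enzymes that charge tRNAs with amino acids were called higher for 9 and lower for 1 of 16 in ERC4 (median 0.18) and higher for 9 and lower for 3 in Esh9-1 (median 0.31). After quantile normalization within each set the ERC4 count was 3 higher and 5 lower. NARS1, for asparagine, rose by 0.98 in ERC4 and 0.38 in Esh9-1, LARS1, for leucine, rose by 0.83 in Esh9-1, and WARS1, for tryptophan, fell by 1.16 in Esh9-1. Of 9 genes of cystine use and glutathione synthesis, 4 were higher and 2 lower in ERC4 (median 0.16), and 2 higher and 5 lower in Esh9-1 (median -0.28). GCLM, a subunit of the first enzyme of glutathione synthesis, rose by 1.41 and 0.84, and GSR, which reduces oxidised glutathione, rose by 0.51 in ERC4 and fell by 1.51 in Esh9-1.

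Among enzymes of glutamine, glutamate, asparagine and proline, 6 of 12 were higher and 3 lower in ERC4 (median 0.25), and 1 higher and 5 lower in Esh9-1 (median -0.15). PRODH, which starts proline breakdown, fell 4.05-fold in ERC4 (-2.02, limma adjusted p = 3.23e-10) and 33.9-fold in Esh9-1 (-5.08, limma adjusted p = 6.78e-15). ASS1, of arginine synthesis, fell by 1.45 and 0.75, and GLUL, which makes glutamine, rose by 1.16 and 0.56. Serine, glycine and one-carbon genes counted 3 higher and 2 lower of 9 in ERC4 (median 0.14) and 1 higher and 5 lower in Esh9-1 (median -0.20). PSAT1 and MTHFD1 of that list rose by 0.37 and 0.54 in ERC4 and fell by 0.43 each in Esh9-1. Genes that break down branched-chain and aromatic amino acids counted 4 higher and 1 lower of 9 in ERC4 (median 0.22) and 2 higher and 2 lower in Esh9-1 (median 0.11), and BCAT1, which transaminates leucine, rose by 0.90 and 1.46. Carriers outside the 7 families counted 3 higher and 3 lower of 11 in ERC4 and 3 higher and 2 lower in Esh9-1 (median -0.01 in each). CTNS, the lysosomal cystine exporter, rose by 0.92 in ERC4 and fell by 0.68 in Esh9-1. Each list is to be read against the backgrounds of all genes given above, and no list was tested as a set. Those backgrounds include dim genes. In ERC4, 14 of 16, 14 of 17 and 10 of 11 genes of the ATF4, mTORC1 sensing and regulator lists lay above the medians in the higher group. Without genes under the medians in all 4 groups, 3747 of 7979 genes were called higher in ERC4. After quantile normalization within each set 2911 of 11963 were.

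**Figure D5:**
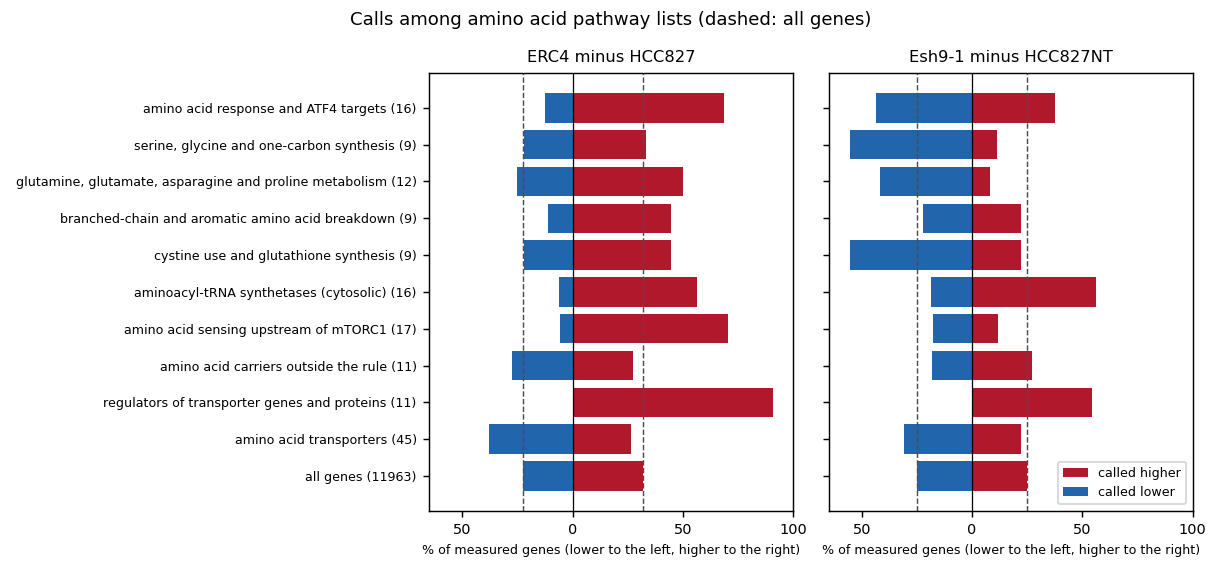
Percent of measured genes called higher (red, to the right) and lower (blue, to the left) in 9 pathway lists, the 45 transporters and all 11963 genes, with the number measured in brackets and dashed lines at the share of all genes. Left is ERC4 minus HCC827 and right is Esh9-1 minus HCC827NT. In ERC4 the bars of the ATF4, mTORC1 sensing and regulator lists (11 of 16, 12 of 17 and 10 of 11 higher) reach past the dashed line at 32.2%. That line includes dim genes, and without them 3747 of 7979 genes were called higher in ERC4.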

How the data were processed

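Transcripts were measured on 12 Affymetrix arrays in 4 groups of 3. The deposited values are linear intensities per probe set, made by the authors with RMA per the submitters' processing notes (version not given in the sources used here). Which arrays went through RMA as 1 batch is not stated in the labels. The number of arrays limits the precision.

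Intensities were taken to log2(intensity + 1), with a pseudocount of 1 that understates fold changes of dim genes, and centred on each array's median. Of the probe sets, 19070 had 1 gene symbol, 1043 several and 2164 none in the platform annotation, and those with 1 symbol were used. The comparisons used limma 3.58.1 (R 4.3.3), with lmFit and eBayes on 1 model of 4 group means with 8 residual degrees of freedom, Benjamini-Hochberg adjustment over 11963 genes and calls at an adjusted p under 0.05. Errors after ± are limma standard errors unless given as SD. Values of single probe sets were adjusted over all 22277 probe sets. The script was tested on simulated data. Replicate numbers were not used as a block.

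Members and lists were chosen with earlier results of these data known. Values on every array are given for called members of at least 2-fold change, with groups that do not overlap and a level above the array medians, and for SLC3A2, SLC7A5, SLC7A11, SLC1A5, SLC7A1 and SLC38A2 whether called or not. SLC1A1, SLC38A1, SLC38A7 and SLC43A3 were added for their difference of effects or their probe sets, after their values were seen. Of each list up to 3 called genes with the largest change were eligible for naming. Alternatives covered the pseudocount, centring, quantile normalization and stretching within sets, dim genes, the mean of probe sets, eBayes settings, fits of 6 arrays, a replicate block and leaving out each array. Figures were drawn with matplotlib 3.10.9.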

Additional observations from a re-analysis of the deposited data

Results flagged for a closer look

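The effects of ERC4 (against HCC827) and of Esh9-1 (against HCC827NT) on the same transporter differed in limma's test of the difference for 24 of the 45 genes, beside 48.3% of all genes. Differences below are the ERC4 effect minus the Esh9-1 effect on the log2 scale, measured in 2 sets of arrays of unequal spread. Genes whose effect was the higher in ERC4 were SLC6A6 (1.51), SLC1A1 (1.38), SLC38A1 (0.78), SLC3A2 (0.73), SLC38A7 (0.69), SLC38A2 (0.52) and SLC7A5 (0.38). Those whose effect was the lower in ERC4 were SLC1A3 (-1.29), SLC6A2 (-0.94), SLC7A11 (-0.94), SLC7A6 (-0.92) and SLC1A5 (-0.49). The difference for SLC38A2 was 0.26 (limma adjusted p = 0.0869) after quantile normalization within each set. On its other probe set, 218041_x_at, it was 0.34 (limma adjusted p = 0.0494 over probe sets).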

How the results depend on the processing

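Leaving out 1 array at a time gave 26 to 29 transporters called in ERC4 (12 to 13 higher, 13 to 17 lower), 19 to 25 in Esh9-1 (10 to 11 higher, 9 to 15 lower) and 22 to 26 for the difference of effects (10 to 12 higher, 11 to 15 lower). The shares of all genes called were then 49.1% to 54.6%, 45% to 51.8% and 44.7% to 48.6%. The 9 lower calls in Esh9-1 came without Esh9-1 replicate 1. Leaving out genes under the array medians in all 4 groups took the lower calls from 17 to 9 in ERC4 and from 14 to 9 in Esh9-1. Only 28 members were then tested, and 1795 and 2475 of the 7979 genes left were called lower. Of values called before or after the change, 3 turned direction, each under quantile normalization within each set: SLC1A5 in ERC4 (-0.22), SLC38A7 in ERC4 (-0.01) and the difference of effects of SLC43A3 (-0.27). The cause was not tested. Over the fold changes of the genes followed, 777 values from leaving out an array kept their side of the threshold, 10 passed it, 5 no longer did and 0 called values reversed. Under the other settings these counts were 603, 19, 7 and 3. Values that were not called and turned sign, 6 from leaving out an array and 8 under other settings, are counted among the 777 and 603. Under quantile normalization they were SLC38A2 (-0.06) and SLC7A7 (-0.07) in ERC4 and the difference of effects of SLC7A1 (-0.08). For counts within the pathway lists, 407 of those from leaving out an array and 332 under other settings stayed within 1.5 times, 24 and 20 were lower and 1 and 8 higher. Same-numbered replicates showed little shared deviation (correlations of 0.04, 0.07 and 0.00 in ERC4 and HCC827, and -0.12, -0.02 and -0.11 in Esh9-1 and HCC827NT). ERC4 replicates 1 and 2 deviated most like HCC827 replicates 1 and 2, and no other ERC4 or Esh9-1 replicate matched its own number best. With 3 arrays per group this cannot tell whether the numbers pair arrays. With the replicate number as a block, 30 transporters were called in ERC4 (12 higher, 18 lower), 24 in Esh9-1 and 24 for the difference of effects. Of all genes 54%, 49.3% and 47.5% were then called. With 3 arrays per group, small changes of dim genes are the least certain.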
